A study of Homo sapiens with 4 samples.

Results

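The 10 genes described here encode subunits of SWI/SNF, a chromatin remodeller. They were taken from the deposited expression table by gene name, and all 10 of them had a row among its 26733 genes. Their mRNA was measured in the Jurkat line, which was established from a human T-cell leukaemia of the acute lymphoblastic kind, with 2 libraries per group. One group received GNE987 at a labelled dose of 25 nmol, given without a volume, and the other was untreated, with 24 h as the time. GNE987 is a bifunctional degrader: it binds BET proteins with one end and the ubiquitin ligase VHL with the other, which marks BET proteins for destruction. No other agent or genetic change is named in the labels, and all libraries are of the same line.

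SWI/SNF, called BAF in mammals, uses ATP to slide or evict nucleosomes, which opens promoters and enhancers to transcription factors. Each complex holds either SMARCA4 or SMARCA2 as its ATPase, and SMARCC and SMARCD proteins in its core. In canonical BAF the core also holds SMARCB1 and SMARCE1, with either ARID1A or ARID1B. Many subunits come as paralogues of which a complex takes only some, and several of them are known as tumour suppressors.

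Total counts ran from 16041022 to 18938465 per library, and the counts of the 10 genes from 22 to 9842. Untreated replicate 2 lay on the treated side of untreated replicate 1 for 10 of 10 subunits, against 85.5% of all tested genes, and values without it are given for the genes named here that moved most with it. Of 8 T-cell markers none was below 1 CPM in every library, and their summed level ran from 1441 to 1588 CPM with GNE987 and from 1611 to 1654 CPM without. Of the 8 markers 5 fell and 1 rose, where 37.2% of all tested genes were called lower and 34.4% higher. CD2 was at a log2 fold change of -4.06, CD28 at -2.73, CD3G at -2.59 and CD5 at -2.46. The abundant CD3E was at 717 and 823 CPM with GNE987 and at 507 and 639 CPM without (adjusted p = 0.0688, edgeR). Summed myeloid markers, 6 in the table, were at 142 and 147 CPM with GNE987 and at 0.584 and 29.8 CPM without, while CD33 stayed at or below 0.0988 CPM. Of 5 tested myeloid markers 3 rose, where 34.4% of all tested genes were called higher. MPO was at 72.6 and 77.3 CPM with GNE987 and at 0.0898 and 15.5 CPM without. ITGAM was at 43.1 and 40.4 CPM with GNE987 and at 0.135 and 9.23 CPM without. MPO and ITGAM held most of the treated sum and did not pass (adjusted p = 0.0702 and 0.0531, edgeR). LYZ and CSF1R, which rose, were at 1.30 CPM or less in every library. The B-cell marker CD79A was at 97.1 and 107 CPM with GNE987 and at 40.9 and 51.1 CPM without. Fibroblast markers were at 8.86 and 8.91 CPM against 1.26 and 1.93 CPM, the megakaryocyte marker ITGA2B at 7.48 and 7.46 CPM against 0.449 and 0.839 CPM, and epithelial markers at 0.725 CPM or less in every library. The part of these markers in the results below was not tested. In these bulk samples fewer cells of a type and less RNA per cell cannot be told apart.

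With GNE987 the subunit messages moved in both directions, and more fell than rose. SMARCB1 fell 11.5-fold, ARID1B fell 3.72-fold, and SMARCE1 and SMARCC2 fell 2.83-fold and 2.24-fold. The SMARCE1 value is uncertain, because a second gene model shares most of its coding sequence. SMARCC1, SMARCD1 and SMARCA4 fell by less. ARID1A rose 3.79-fold, SMARCD2 rose 2.77-fold and SMARCA2 rose 1.59-fold. In all, 3 of 10 rose and 7 of 10 fell past an adjusted p of 0.05 (edgeR quasi-likelihood test, Benjamini-Hochberg over all genes), against 71.6% of all 15910 tested genes called in either direction, 34.4% higher and 37.2% lower. A called gene was thus the common case in this comparison. Called changes of at least 2-fold were seen in 6 of 10, against 52.2% of tested genes, with 2 higher (24.6% of tested genes) and 4 lower (27.6%). The median log2 fold change was -0.63 over the 10 subunits and -0.03 over all tested genes. Without GNE987 replicate 1 the calls were 2 higher and 4 lower, where 37.7% of all genes were called, 13.2% higher and 24.5% lower. Without GNE987 replicate 2 they were 2 higher and 3 lower, where 37.8% of all genes were called, 13.1% higher and 24.7% lower. Without untreated replicate 2 they were 3 higher and 7 lower, where 78.9% of all genes were called, 40.3% higher and 38.6% lower.

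**Figure D1:**
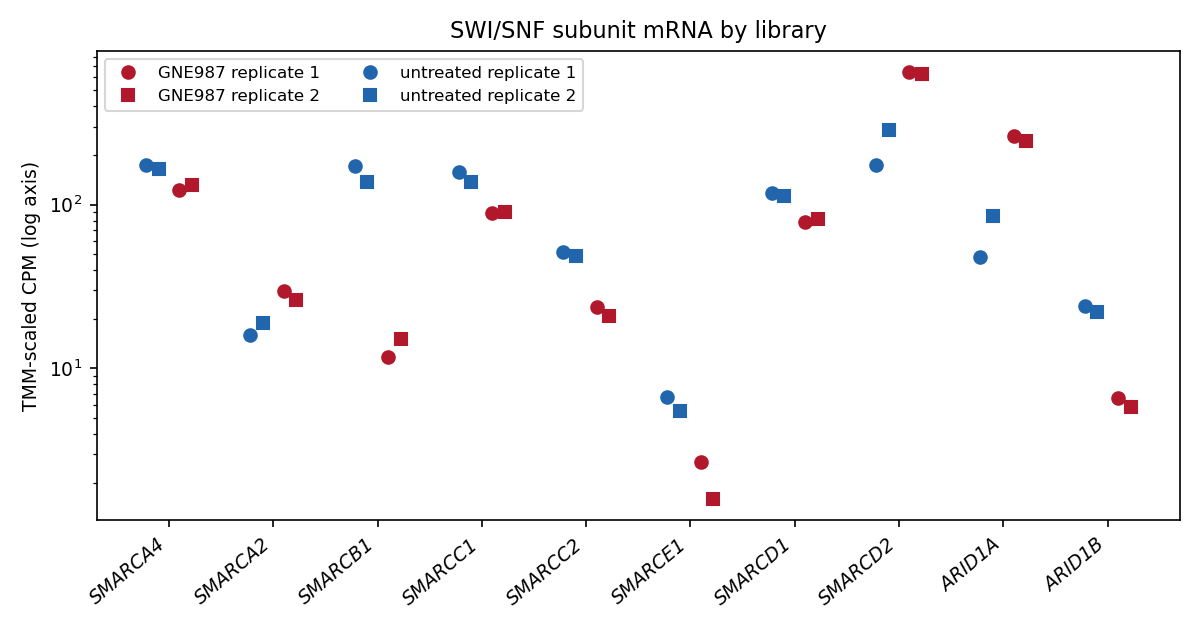
TMM-scaled CPM (log axis) of the 10 subunits in each of the 4 libraries; red symbols are GNE987, blue symbols untreated, circles replicate 1 and squares replicate 2. SMARCB1 lies at 11.8 and 15.1 CPM with GNE987 and at 172 and 138 CPM without, and no subunit has overlapping groups.

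CPM values here are counts relative to the library total after TMM scaling. That scaling is meant for a few abundant genes taking more of a library, while 71.6% of tested genes were called here. Rises and falls are thus relative to the other genes of a library. The plot of subunit mRNA by library shows that the groups did not overlap for 10 of 10 subunits, and this held for 91.1% of all tested genes. Only the spread between 2 libraries per group stands behind each value, and the labels do not say that they came from separate cultures, so p-values may measure technical spread alone.

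The ATPase subunits changed little and in opposite directions. SMARCA4 (BRG1), the ATPase that powers most BAF complexes in cycling cells, was at 124 and 132 CPM with GNE987 and at 175 and 165 CPM without. Both treated libraries were lower, with a log2 fold change of -0.41 ± 0.12 (SE) and an adjusted p of 0.0253. That call was lost with RLE size factors (adjusted p = 0.0559), with upper-quartile scaling (0.174), with a filter of 10 CPM (0.0898), with the replicate block (0.0588) and without either treated library (0.215 and 0.143). SMARCA2 (BRM), the alternative ATPase, was at 29.7 and 26.0 CPM with GNE987 and at 16.1 and 19.0 CPM without. It was higher in both treated libraries, with a log2 fold change of 0.67 ± 0.15 and an adjusted p of 0.0119. Scaled by library size alone it was at 0.30 (adjusted p = 0.166), and the call was also lost without GNE987 replicate 1 (0.112) or replicate 2 (0.0622). SMARCA4 lies on chromosome 19 from 10960825 to 11079426 and SMARCA2 on chromosome 9 from 1980290 to 2193624 (GRCh38, GENCODE release 29).

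SMARCB1 (SNF5, BAF47) is the core subunit that touches the nucleosome's acidic patch and is lost in rhabdoid tumours. It had 180 and 208 counts, or 11.8 and 15.1 CPM, in the treated libraries. In untreated cells it had 3824 and 2795 counts, or 172 and 138 CPM. Every untreated library was thus far above every treated one, and the log2 fold change was -3.53 ± 0.19 (adjusted p = 0.000295). This was the largest change among the 10, and it passed the threshold in 12 of 12 alternative settings, between -3.91 and -3.33. SMARCB1 lies on chromosome 22 from 23786931 to 23838008. Its merged exons share 2923 bases with those of DERL3 on the other strand, which had 4 to 8 counts per library.

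ARID1A (BAF250A), the DNA-binding subunit of canonical BAF and often mutated in cancer, went the other way. Its treated libraries had 263 and 245 CPM, and its untreated ones had 48.1 CPM (replicate 1) and 85.6 CPM (replicate 2). The untreated libraries were well below the treated pair but also apart from each other. The log2 fold change was 1.92 ± 0.29 (adjusted p = 0.00304), and 2.41 without untreated replicate 2 and 1.50 without untreated replicate 1. It passed in 12 of 12 alternatives. ARID1B (BAF250B), its mutually exclusive paralogue, was at 6.57 and 5.80 CPM with GNE987 and at 24.0 and 22.1 CPM without. Its log2 fold change was -1.89 ± 0.16 (adjusted p = 0.000589), lower in both treated libraries and past the threshold in 12 of 12 alternatives. ARID1A lies on chromosome 1 from 26693236 to 26782110 and ARID1B on chromosome 6 from 156776020 to 157210779.

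Sequence upstream of SMARCB1 and ARID1A is shown because these are the subunits with the largest fall and the largest rise, and each had a single start in the RefSeq table (GRCh38.p14). Both stretches lie on the plus strand within the 250 bases before the start, and bases that GENCODE annotates as exon were left off. The ARID1A stretch lies in an intron of the GENCODE model, which begins upstream of the RefSeq start. Capitals mark matches to 5 short motifs on either strand: the E-box CACGTG, the GC box GGGCGG, the CCAAT box CCAAT, the ETS core CCGGAAG and the TATA box TATAAA. SMARCB1 is shown over chr22:23786716-23786930 and ARID1A over chr1:26695765-26696014.
SMARCB1: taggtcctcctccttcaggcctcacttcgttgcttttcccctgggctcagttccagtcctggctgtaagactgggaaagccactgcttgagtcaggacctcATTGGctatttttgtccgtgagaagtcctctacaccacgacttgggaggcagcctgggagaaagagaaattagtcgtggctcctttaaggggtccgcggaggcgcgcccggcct
ARID1A: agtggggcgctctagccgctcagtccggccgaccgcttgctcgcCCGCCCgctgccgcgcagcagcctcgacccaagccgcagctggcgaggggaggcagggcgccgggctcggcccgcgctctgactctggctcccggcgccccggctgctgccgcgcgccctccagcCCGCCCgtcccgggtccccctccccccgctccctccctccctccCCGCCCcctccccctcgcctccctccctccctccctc
The SMARCB1 window held 1 CCAAT box and no other of these motifs, and 58.0% of its 250 bases were G or C. The ARID1A window held 3 GC boxes, none overlapping another match, and 80.4% of its bases were G or C. Over all 35116 windows of this length in the table, the median was 58.0%, and a match was present in 42.6% for the GC box, 32.0% for the CCAAT box, 6.34% for the E-box, 8.52% for the ETS core and 10.7% for the TATA box. RefSeq windows were found for 8 of the 10 subunits, 15 windows in all. The E-box was in 0 of 15 and the GC box in 7 of 15. A match is only a run of letters, and no binding was measured.

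SMARCC1 (BAF155) and SMARCC2 (BAF170), the scaffold proteins on which the core is assembled, both fell. SMARCC1 was at 88.4 and 90.4 CPM with GNE987 and at 158 and 138 CPM without, a log2 fold change of -0.73 ± 0.13 (adjusted p = 0.00477). That call was lost without GNE987 replicate 1 (adjusted p = 0.0710) and without GNE987 replicate 2 (0.0635). SMARCC2 was at 23.7 and 21.0 CPM with GNE987 and at 51.4 and 48.6 CPM without. Its log2 fold change was -1.16 ± 0.13 (adjusted p = 0.00124), and it passed in 12 of 12 alternatives. Of the 4114 bases of its longest coding transcript, 169 are shared with exons of MYL6 on the other strand. MYL6, a myosin light chain gene, had 9721 to 11706 counts per library, and without strand information reads from those bases cannot be told apart. SMARCC1 lies on chromosome 3 from 47585272 to 47782106 and SMARCC2 on chromosome 12 from 56162983 to 56189567.

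SMARCD1 (BAF60A) and SMARCD2 (BAF60B), alternative subunits that link the complex to transcription factors, moved apart. SMARCD2, known for its role in granulocyte development, had 646 and 630.0 CPM in its treated libraries, and 175 CPM (replicate 1) and 286 CPM (replicate 2) in its untreated ones. Both treated libraries were above both untreated ones, and the log2 fold change was 1.47 ± 0.25 (adjusted p = 0.00459). It was 1.87 without untreated replicate 2 and 1.09 without untreated replicate 1, and it passed in 12 of 12 alternatives. SMARCD1 was at 78.5 and 81.6 CPM with GNE987 and at 118 and 113 CPM without. Its log2 fold change was -0.53 ± 0.11 (adjusted p = 0.00836), and the call was lost without GNE987 replicate 1 (0.114) and without GNE987 replicate 2 (0.0897). SMARCD1 lies on chromosome 12 from 50084972 to 50100712 and SMARCD2 on chromosome 17 from 63832081 to 63843065.

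SMARCE1 (BAF57), a core subunit with an HMG box that binds DNA, had the fewest reads of the 10. It had 41 and 22 counts with GNE987 and 149 and 112 without, or 2.69, 1.59, 6.69 and 5.53 CPM. The treated libraries were lower, with a log2 fold change of -1.50 ± 0.35 (adjusted p = 0.0120), and the call was lost without GNE987 replicate 2 (adjusted p = 0.0666). SMARCE1 lies on chromosome 17 from 40624962 to 40648864. On the same strand a second coding gene model, AC073508.2, shares 91.5% of the bases of its longest coding sequence and 59.7% of that transcript. Reads from the shared exons cannot be assigned to a single model, and AC073508.2 has no counts in the deposited data. The antisense gene AC073508.3, with 565 bases in common, had 0 and 1 counts with GNE987 and 14 and 12 without. The level and the fold change of SMARCE1 are therefore uncertain.

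**Figure D2:**
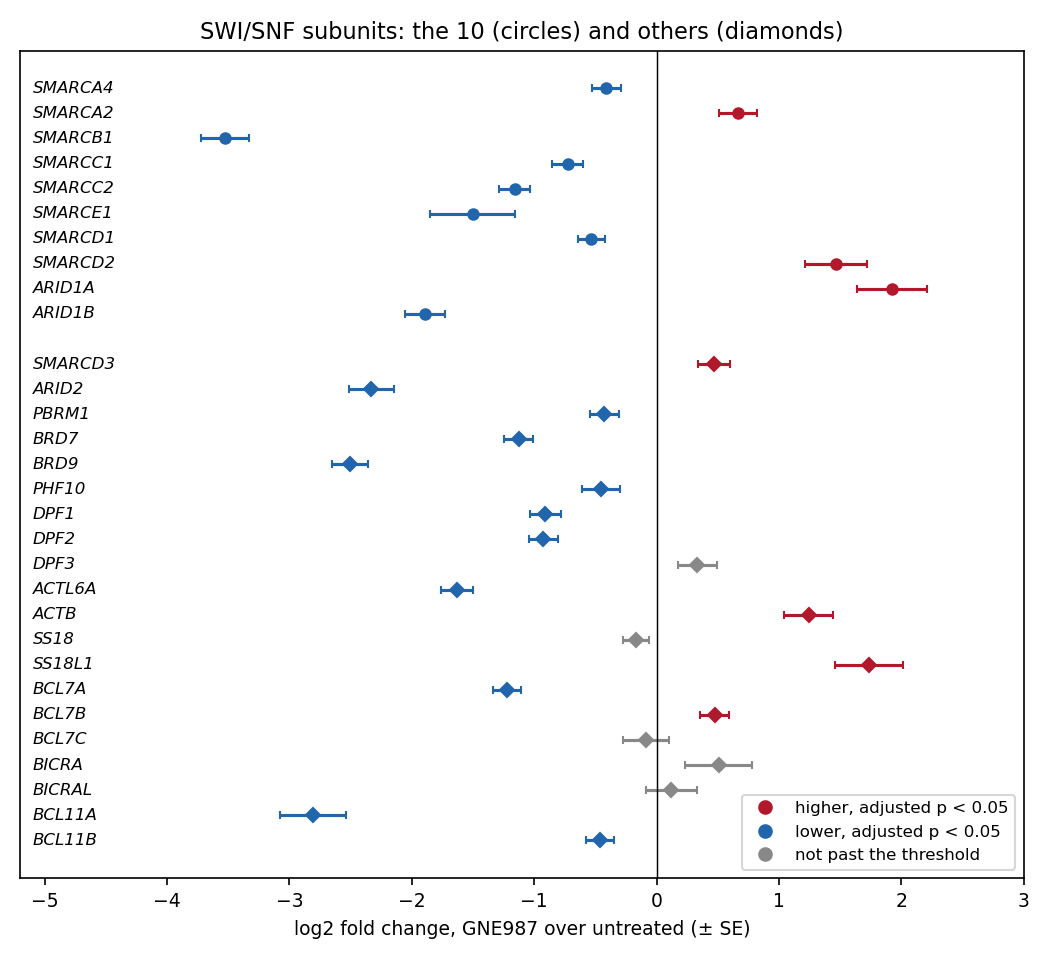
Log2 fold change of GNE987 over untreated with its standard error for the 10 subunits (circles) and 20 tested further SWI/SNF subunits (diamonds); red and blue passed an adjusted p of 0.05, grey did not. SMARCB1 lies at -3.53 and ARID1A at 1.92, and the further subunits lie on both sides of 0.

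Levels of different subunits were set side by side with the deposited FPKM values, which are per kilobase of merged exons. In untreated cells the order was SMARCD2 (60.8 ± 19.6 FPKM, SD, n = 2), SMARCD1 (22.3 ± 1.13), SMARCC1 (19.1 ± 2.23), SMARCA4 (10.7 ± 0.672), SMARCB1 (9.27 ± 1.61), SMARCC2 (5.78 ± 0.349), ARID1A (4.13 ± 1.56), SMARCA2 (0.932 ± 0.0901), ARID1B (0.509 ± 0.0399) and SMARCE1 (0.323 ± 0.0498). SMARCA4 and SMARCB1 overlapped between libraries, and the other neighbours did not. With GNE987 the order became SMARCD2 (169 ± 2.56 FPKM), ARID1A (15.7 ± 0.739), SMARCD1 (15.4 ± 0.469), SMARCC1 (11.6 ± 0.214), SMARCA4 (8.01 ± 0.379), SMARCC2 (2.58 ± 0.212), SMARCA2 (1.48 ± 0.133), SMARCB1 (0.804 ± 0.140), ARID1B (0.137 ± 0.0116) and SMARCE1 (0.113 ± 0.0407). ARID1A and SMARCD1 overlapped there, as did ARID1B and SMARCE1. The place of SMARCE1 is uncertain in both orders, because of the exons it shares with AC073508.2. ARID1A thus went from place 7 to place 2 and SMARCB1 from place 5 to place 8.

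The order depends on the length used. Merged exons of SMARCB1 span 16525 bases but its longest coding transcript has 1717, and ARID1B has 44677 against 10813. Per kilobase of that transcript SMARCB1 had the highest level in untreated cells, 90.2 ± 13.9 CPM per kilobase, next to SMARCD2 with 85.0 ± 28.9, whose libraries spread more widely than that gap. With GNE987 it was sixth in that order, at 7.83 ± 1.34 CPM per kilobase, and SMARCD2 was first at 235 ± 4.19. This second length was chosen after the values were seen.

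Ratios of paralogues within a library do not depend on how libraries are scaled. ARID1A exceeded ARID1B in every library, and the log2 ratio of their FPKM was 2.49 and 3.44 in the untreated libraries and 6.81 and 6.89 in the treated ones. The ratio rose 14.7-fold, and ARID1A made up 84.9% and 91.6% of the pair's FPKM without GNE987 and 99.1% and 99.2% with it. Per longest coding transcript, which is far shorter than the merged exons of ARID1B, these shares were 71.6% and 83.0% without GNE987 and 98.1% and 98.2% with it. SMARCA4 exceeded SMARCA2 in every library by a smaller margin after treatment, with log2 ratios of 3.68 and 3.35 without GNE987 and 2.30 and 2.58 with it. SMARCA4 made up 92.8% and 91.1% of the ATPase pair in untreated cells and 83.1% and 85.7% in treated ones. The log2 ratio of SMARCD1 to SMARCD2 was -1.02 and -1.80 without GNE987 and -3.50 and -3.41 with it, so that SMARCD1 went from 33.0% and 22.4% of the pair to 8.11% and 8.61%. SMARCC1 to SMARCC2 moved least, from 1.78 and 1.67 to 2.06 and 2.27.

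Among single tested genes the groups did not overlap for 91.1%, and no such share was computed for other ratios. Beside that, the groups did not overlap for 4 of 4 ratios here. In an exact two-sided permutation test over the 4 libraries each gave p = 0.333, the smallest that 6 regroupings allow, so no ratio could pass 0.05. Without untreated replicate 2 the change in log2 ratio was 4.36 for ARID1A to ARID1B, -1.24 for SMARCA4 to SMARCA2, -2.43 for SMARCD1 to SMARCD2 and 0.38 for SMARCC1 to SMARCC2, against 3.88, -1.08, -2.05 and 0.44 with all libraries. The pairs were set by paralogy, with the members' changes already known.

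**Figure D3:**
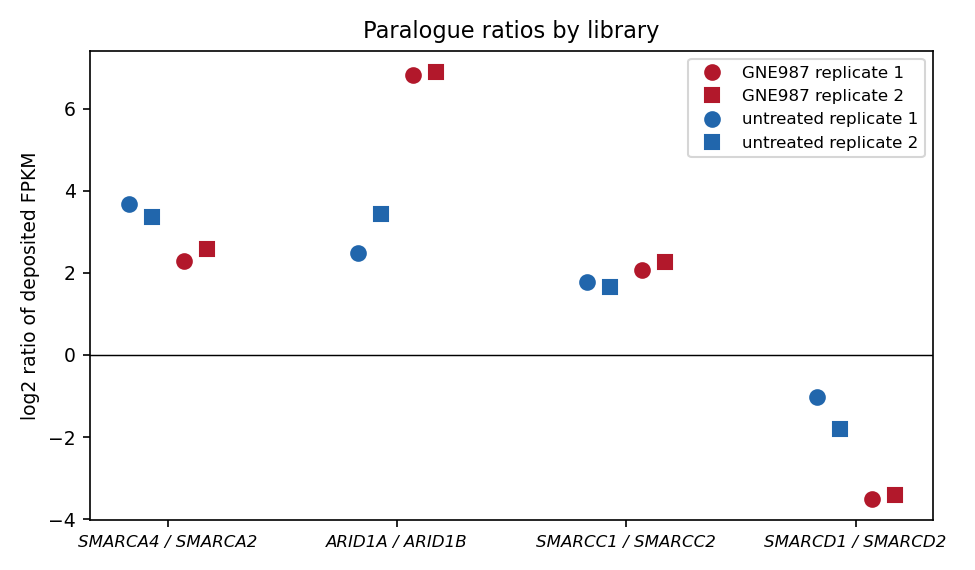
Log2 ratio of deposited FPKM within each library for 4 pairs of paralogues; red symbols are GNE987, blue symbols untreated, circles replicate 1 and squares replicate 2, and 0 marks equal levels. ARID1A over ARID1B lies at 6.81 and 6.89 with GNE987 and at 2.49 and 3.44 without.

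The further SWI/SNF subunits were taken from a list of 21, of which 20 were tested, 4 rose, 11 fell and 5 did not pass. Of all tested genes 34.4% were higher and 37.2% lower, so that the 75% called here lay near the 71.6% called overall. The list had a median log2 fold change of -0.44 against -0.03 over all tested genes. Without untreated replicate 2, 5 rose and 11 fell, where 78.9% of all genes were called. Without GNE987 replicate 1, and likewise without GNE987 replicate 2, 2 rose, 8 fell and 10 did not pass, where 37.7% and 37.8% of all genes were called. ARID2, which replaces ARID1 proteins in the PBAF form of the complex, had 22.9 ± 3.25 CPM (SD, n = 2) without GNE987 and 4.55 ± 0.0253 CPM with it, and its log2 fold change was -2.33 ± 0.19. BRD9, the bromodomain subunit of the non-canonical form, went from 139 ± 20.0 to 24.5 ± 0.0462 CPM, a change of -2.51 ± 0.15. ACTL6A, the actin-related subunit, was at -1.63 ± 0.13. Adjusted p-values were 0.000486 for ARID2, 0.000307 for BRD9 and 0.000474 for ACTL6A (edgeR).

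Other subunits were chosen by role after their values were seen. Those of PBAF besides ARID2 fell too: BRD7 was at -1.13 ± 0.12, PBRM1 at -0.43 ± 0.12 and PHF10 at -0.45 ± 0.15 (adjusted p = 0.00104, 0.0215 and 0.0405). PBRM1 and PHF10 did not pass with upper-quartile scaling (adjusted p = 0.126 and 0.181), with the filter of 10 CPM (0.0905 and 0.134) or without either treated library (0.113 to 0.230 over both genes), nor did PBRM1 with the replicate block (0.0523) or PHF10 with RLE factors (0.0780) or DESeq2 (0.0818). SS18L1, the paralogue of SS18, rose by 1.74 ± 0.28 and ACTB, the actin that sits in the complex as well as in the cytoskeleton, by 1.24 ± 0.20 (adjusted p = 0.00376 and 0.0039). Without untreated replicate 2 they were at 2.21 and 1.47, and without untreated replicate 1 at 1.32 and 0.99. The lymphoid factors BCL11A and BCL11B, which associate with BAF, were at -2.81 ± 0.27 and -0.46 ± 0.11 (adjusted p = 0.000821 and 0.0154). BCL11B did not pass with upper-quartile scaling (0.0902) or without GNE987 replicate 1 (0.102) or replicate 2 (0.137).

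**Figure D4:**
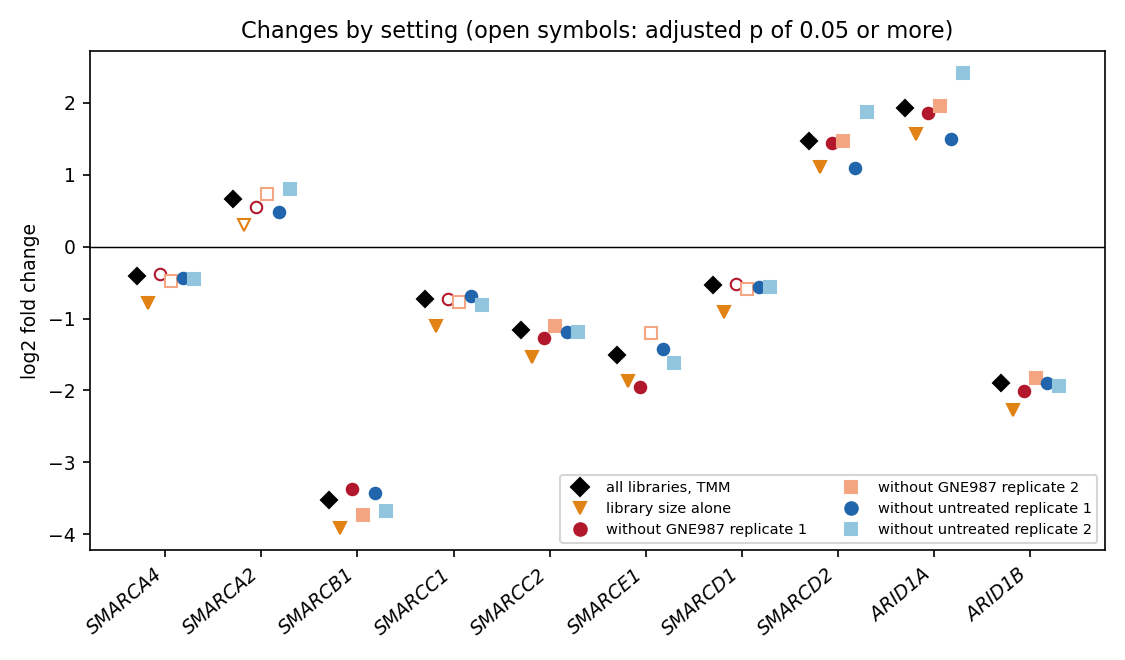
Log2 fold change of each subunit with all libraries, with library size alone and with each library left out; filled symbols passed an adjusted p of 0.05 and open ones did not. SMARCB1, SMARCC2, SMARCD2, ARID1A and ARID1B stay filled throughout, while SMARCA4, SMARCA2, SMARCC1 and SMARCD1 turn open without either treated library. SMARCE1 turns open without GNE987 replicate 2, and SMARCA2 also with library size alone.

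Scaling shifts all values together, and the labels name no spike-in. With library size alone the median log2 fold change was -1.01 in place of -0.63 over the 10 subunits and -0.41 in place of -0.03 over all tested genes, with 2 higher and 7 lower, where 70.8% of all genes were called, 25.8% higher and 45% lower. With upper-quartile scaling the medians were -0.43 and 0.16, with 3 higher and 6 lower, where 71.9% of all genes were called, 39.4% higher and 32.6% lower. With the replicate number as a block 3 were higher and 6 lower, where 61.6% of all genes were called, 28.5% higher and 33.1% lower. Over all alternatives the share of genes called ran from 37.7% to 80.9%. No subunit of the 10 changed sign in any alternative fitted. Per the authors' deposited table, the log2 fold change was -3.53 for SMARCB1 and 1.93 for ARID1A, and the largest adjusted p among the 10 was 0.0187, for SMARCA4. DESeq2 on the same counts also gave -3.53 and 1.93, so the deposited values are not separate support.

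The genes whose 4-library profile lay nearest were looked up for the subunits with the largest change in either direction, among 8427 coding genes whose mean over the 4 libraries reached 10 CPM. Distance was Euclidean on log2 CPM centred on each gene's mean. MUL1, EIF2A and MPST were nearest to SMARCB1, at 0.0350, 0.0631 and 0.0704, and all 3 were below 10 CPM in both treated libraries. POLH, KDM4B and PRNP were nearest to ARID1A, at 0.0323, 0.0412 and 0.0508. With 4 libraries in 2 groups many genes lie close, and the values describe these libraries only.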

How the data were processed

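Polyadenylated RNA of 4 Jurkat libraries was sequenced. HISAT2 2.2.0 and the build hg38 are named in the submitters' processing notes. Which program counted reads, with which annotation and strand option, is not given in the sources used here. All tests used the deposited raw counts per gene. The authors' normalized signal equals each count over a size factor of its library. The authors' FPKM used merged exon lengths equal to those of GENCODE release 29 in 100% of values (within 0.1%). The log2 fold changes and p-values in the authors' deposited table have no stated test. For the subunits described here those log2 fold changes nearly equal the ones DESeq2 gave on the same counts. RNA was extracted with TRIzol, and the TruSeq kit does not mark strand, per the labels' protocols.

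Genes were kept with filterByExpr (minimum count 10, total 15), leaving 15910. Counts were TMM-scaled and tested with glmQLFit and glmQLFTest of edgeR 4.0.16 in R 4.3.3, with 2 residual degrees of freedom and Benjamini-Hochberg adjustment over all tested genes. The threshold was 0.05. The SE is the log2 fold change divided by the square root of F. The script was tested on simulated data. Alternatives were RLE, upper-quartile and library-size scaling, 2 other filters, DESeq2 1.42.0, robust estimation, the replicate block, and each library left out. At these depths 3 counts equal 0.158 to 0.187 CPM, which covers counting error only. Named genes were the 10 members, at most 3 genes with the smallest p per further list, and the 3 nearest profiles of the 2 members with the largest changes; BRD7, PBRM1, PHF10, SS18L1, ACTB, BCL11A and BCL11B, and the T-cell and other markers, were named outside this rule after their values were seen. The members and lists were chosen with earlier results of these data known. Some marker values are not reported here.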

Additional observations from a re-analysis of the deposited data

How the results depend on the processing

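Of 119 alternative values of the 10 subunits 105 kept direction and side of the threshold, 14 kept the direction and lost the threshold, and 0 changed sign. Leaving out 1 library in turn gave 2 to 3 subunits higher and 3 to 7 lower, 8 to 19 called genes in the CHD and NuRD list (14 with all libraries), and 6306 to 13341 called genes in all (11387 with all libraries). The high ends of the last 2 came without untreated replicate 2, where the lone untreated library is assumed to vary like the treated pair. Log2 CPM correlated at 0.989 within the treated pair and at 0.967 within the untreated pair. The low ends came without a treated library, where the lone treated library is assumed to vary like the untreated pair. With the replicate block 9801 genes passed in all, and of the subunits 3 were higher and 6 lower, SMARCA4 being lost. The labels do not say that a number pairs libraries, and deviations of libraries numbered 1 correlated at -0.006 across genes. With raw counts, not per length, the untreated log2 ratio was 3.28 for SMARCA4 to SMARCA2 (3.52 with FPKM), 1.48 for ARID1A to ARID1B (2.97) and 1.56 for SMARCC1 to SMARCC2 (1.73). Per longest coding transcript, an alternative added after seeing the data, it was 1.81 for ARID1A to ARID1B and 0.93 for SMARCC1 to SMARCC2. The filter of 10 CPM removed SMARCE1. SMARCE1 and ARID1B had the fewest counts, 22 and 80 in the lowest library. For SMARCE1 the exons shared with AC073508.2 are a further limit.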

Other observations

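Other remodellers were read from 4 further lists, and they were not compared with SWI/SNF by a test. Some listed genes share most coding bases with exons of other gene models, among them INO80B (99.9%), CHD4 (99.4%), SRCAP (94.5%) and RAD54B (88.9%). Their values are uncertain for that reason. Of all tested genes 34.4% were called higher and 37.2% lower, and without GNE987 replicate 1 or replicate 2 the shares called in either direction were 37.7% and 37.8%. Of 24 genes of INO80, SRCAP and TIP60, complexes that move or exchange histone variant H2A.Z or acetylate histones, 18 fell and 2 rose (median log2 fold change -1.49, and -1.53 without untreated replicate 2). Without GNE987 replicate 1, 14 fell, without GNE987 replicate 2, 15 fell, and the 2 rises passed in neither fit. DMAP1 went from 54.0 ± 7.61 to 3.94 ± 0.748 CPM (SD, n = 2), a change of -3.77 ± 0.20 (SE). MCRS1, an INO80 subunit, was at -3.53 ± 0.16, and VPS72, which binds H2A.Z, at -3.27 ± 0.17. Of 11 other SNF2-family ATPases 8 fell and 1 rose (median -1.26, and -1.20 without untreated replicate 2), and 6 fell without either treated library, with TTF2 at -3.88 ± 0.17, SMARCAD1 at -3.40 ± 0.25 and SMARCAL1, which restarts stalled forks, at -2.91 ± 0.24.

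CHD and NuRD genes moved in both directions. Of 20 genes 7 rose and 7 fell, with a median of 0.001. Scaled by library size alone, 4 were higher and 10 lower (median -0.37), where 25.8% of all genes were called higher and 45% lower. With upper-quartile scaling 10 rose and 6 fell (median 0.20), where 39.4% of all genes were called higher and 32.6% lower. Without untreated replicate 2, 9 rose and 10 fell, where 78.9% of all genes were called, and without GNE987 replicate 1 or replicate 2, 8 and 9 genes passed. The NuRD subunits MTA3, MBD3 and MTA1 were at -2.15 ± 0.20, -1.32 ± 0.13 and -1.31 ± 0.14. MBD3 shares 87.4% of its coding bases with exons of other gene models, so its value is uncertain. Of 11 ISWI genes 2 rose and 2 fell (median -0.19, and 0.01 with upper-quartile scaling). Scaled by library size alone, 1 was higher and 5 lower (median -0.56), and without either treated library 1 rose and 2 fell. BAZ2A, of the nucleolar remodelling complex, was at 1.68 ± 0.27 (2.13 without untreated replicate 2 and 1.27 without untreated replicate 1), CHRAC1 at -2.47 ± 0.18 and the ATPase SMARCA1 at -2.43 ± 0.27. Across the 4 lists the named genes had adjusted p-values from 0.000292 to 0.00373 (edgeR quasi-likelihood test).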
